A study of Mus musculus with 20 samples.

Results

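HOX genes encode homeodomain transcription factors that sit in 4 clusters, HOXA, HOXB, HOXC and HOXD, and are numbered by position within the cluster, so that genes with the same number in different clusters are paralogues. Genes were taken by symbol, a letter from a to d followed by a paralogue number, and kept where at least 2 of 20 libraries held at least 1 CPM (the gene's reads scaled to a common library size). The rule found 39 HOX genes among the 45706 genes of the table and kept 32 of them: 11 of 11 in HOXA, 8 of 10 in HOXB, 7 of 9 in HOXC and 6 of 9 in HOXD. On the mm10 build, HOXA lies on chromosome 6 on the minus strand, HOXB on chromosome 11, HOXC on chromosome 15 and HOXD on chromosome 2, all 3 on the plus strand. Just inside the limit, Hoxa4 reached 1 CPM in 2 libraries with at most 14 counts. Just outside it, Hoxd4 reached 1 CPM in 1 library with at most 13 counts.

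In the embryo the clusters are opened in order from one end to the other, genes with low numbers being used toward the head and genes with high numbers toward the tail and the tips of the limbs and the genital tubercle. Cultured fibroblasts keep much of the HOX code of the body site they came from, held by Polycomb repression of the silent genes and Trithorax activity on the active ones. HOX proteins bind DNA together with cofactors of the PBX and MEIS families, and retinoic acid is a classical inducer of the low-numbered genes.

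The cells were primary embryonic fibroblasts of C57BL/6 mice (MEFs), cells of the connective tissue cultured from embryos, and polyadenylated RNA was sequenced. One genotype is crel-/- (no c-Rel, an NF-kB subunit). The other, crel-/-RelA-TA-KI, called the knock-in here, lacks c-Rel as well and carries a knock-in allele of RelA, another NF-kB subunit, whose altered part the labels do not describe. Cells were starved in 0.5% calf serum before 10 ng/ml of interleukin 1 beta (IL-1b), 100 ng/ml of bacterial lipopolysaccharide (LPS) or 10 ng/ml of tumour necrosis factor (TNF) was added for 0.5, 1 or 3 h, and unstimulated cells served as 0 h. Each of the 10 conditions has 1 library per genotype, 20 in all. Unstimulated libraries exist at 0 h only. In changes against 0 h, an effect of the agent and one of time in culture cannot be told apart. The labels name no separate cultures, embryos or body regions and no pooling of embryos, so p-values reflect only how far these libraries scatter, which may in part be technical scatter.

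Library totals lay between 9248151 and 12574135 counts, and the detection floor used here, 3 counts, lies between 0.222 and 0.435 CPM. Levels are CPM after TMM scaling, whose factors, 0.979 or more elsewhere, were 0.722 and 0.732 for LPS at 3 h. The 12 fibroblast identity genes summed to between 57038 and 88129 CPM per library. Macrophage markers, 14 of 15 of which passed the filter and none of which was at 0 throughout, summed to 2760 to 5551 CPM in crel-/- and 2666 to 5278 CPM in knock-in libraries. The IL-1b and LPS libraries also stood apart from the 0 h and TNF libraries in genes outside the clusters. The fibroblast gene Fn1, which encodes fibronectin, lay between 4126 and 6786 CPM in the 8 libraries of 0 h and TNF and between 8056 and 14134 CPM in the 12 of IL-1b and LPS. Neural and Schwann cell markers were lower after 0.5 h of IL-1b (5 of 12, median -1.64) and of LPS (5 of 12, median -1.70), as were macrophage markers (8 and 6 of 14). After 0.5 h of TNF 0 of either list passed by edgeR, with medians of -0.18 and 0.03. The part of these differences in the HOX values was not tested. In bulk RNA, fewer cells of a type and less RNA per cell cannot be told apart.

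Promoter windows of 250 bases before to 50 after the transcription start were taken from RefSeq (GRCm38.p6) for the 18 genes that had an entry. Shown are 2 of the 9 genes with an entry that fell after 3 h of LPS, Hoxa3 and Hoxa5, and all 3 with an entry that rose, Hoxb4, Hoxb8 and Hoxd13, so that the promoters of genes described further on can be read side by side. Capitals mark the CCAAT box (CCAAT, or ATTGG where it lies on the other strand) and the TATA box (TATAAA, or TTTATA on the other strand). Each line reads 5′ to 3′ on the strand of the gene.
Hoxa3 (chr6:52213018-52213317, minus strand): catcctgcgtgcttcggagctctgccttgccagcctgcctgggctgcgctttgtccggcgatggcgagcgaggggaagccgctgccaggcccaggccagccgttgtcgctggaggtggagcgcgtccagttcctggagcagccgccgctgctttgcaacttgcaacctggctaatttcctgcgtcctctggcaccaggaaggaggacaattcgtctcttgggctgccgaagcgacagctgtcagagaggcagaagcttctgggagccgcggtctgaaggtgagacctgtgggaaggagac
Hoxa5 (chr6:52204538-52204837, minus strand): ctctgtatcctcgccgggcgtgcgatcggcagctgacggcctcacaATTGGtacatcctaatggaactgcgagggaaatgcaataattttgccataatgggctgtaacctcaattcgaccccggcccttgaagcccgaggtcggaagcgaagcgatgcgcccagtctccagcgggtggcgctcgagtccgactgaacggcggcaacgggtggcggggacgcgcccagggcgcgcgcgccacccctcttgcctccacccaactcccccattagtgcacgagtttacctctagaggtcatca
Hoxb4 (chr11:96318017-96318316, plus strand): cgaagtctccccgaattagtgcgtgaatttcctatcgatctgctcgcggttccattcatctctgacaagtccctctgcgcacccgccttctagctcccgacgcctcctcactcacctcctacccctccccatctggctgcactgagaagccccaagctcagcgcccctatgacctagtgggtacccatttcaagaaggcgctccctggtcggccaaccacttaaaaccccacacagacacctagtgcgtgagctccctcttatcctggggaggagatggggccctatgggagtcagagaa
Hoxb8 (chr11:96281655-96281954, plus strand): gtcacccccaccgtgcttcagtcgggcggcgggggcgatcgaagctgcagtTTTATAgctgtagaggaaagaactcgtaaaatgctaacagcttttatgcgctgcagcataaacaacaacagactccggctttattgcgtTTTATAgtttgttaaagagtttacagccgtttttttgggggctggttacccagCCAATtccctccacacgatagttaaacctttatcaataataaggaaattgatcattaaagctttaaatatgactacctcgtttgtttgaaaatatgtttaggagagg
Hoxd13 (chr2:74667975-74668274, plus strand): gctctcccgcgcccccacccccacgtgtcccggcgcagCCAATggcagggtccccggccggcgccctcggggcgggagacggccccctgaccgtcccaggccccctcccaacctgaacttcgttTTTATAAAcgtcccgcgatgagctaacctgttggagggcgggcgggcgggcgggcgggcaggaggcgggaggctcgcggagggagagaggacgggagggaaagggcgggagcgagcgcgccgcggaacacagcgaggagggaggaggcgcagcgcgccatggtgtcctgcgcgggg
The Hoxd13 window, with 74.3% G or C and 37 CG pairs, differs in composition from the Hoxb8 window, with 42.3% and 13. Both hold TATAAA on at least 1 strand, overlapping on both strands in Hoxd13, and 1 CCAAT match, while the Hoxb4 window (58%, 14 CG pairs) held none of these letters. The Hoxa3 window (64%, 20 CG pairs) held none of these letters and the Hoxa5 window (61.7%, 29 CG pairs) 1 CCAAT match.

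Over the 18 windows the median was 56.8% G or C and 13.5 CG pairs, against 52.7% and 7 over all 32851 promoter windows of 300 bases. CCAAT was found on either strand in 10 of 18 (55.6%, against 37.4% of all windows), TATAAA in 2 (11.1% against 13.6%) and TAATTA, a core read by many homeodomains, in 1 (5.56% against 5.29%). The kappaB consensus, read by NF-kB, was found in 0 of 18 and in 4.51% of all windows. These counts describe letters in windows and no binding was measured.

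HOX levels differed widely along the clusters. In CPM per kb of exon, which allows genes to be set side by side, the mean over 20 libraries was highest for Hoxd13 at 67.3, a gene of the digit and genital territory, followed by Hoxb9 at 12.6, Hoxa13 at 11.3 and Hoxa10 at 9.84. In HOXC the highest were Hoxc8 at 7.60 and Hoxc6 at 7.37, and in HOXD Hoxd12 followed at 7.52 CPM per kb. HOXB was highest at its number 9 and next at Hoxb8, 3.22 CPM per kb.

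The lowest levels lay at the anterior end of HOXA and at single genes within the other clusters. In HOXA, Hoxa4 stood at 0.315, Hoxa3 at 0.418 and Hoxa2 at 0.508 CPM per kb. In HOXB the lowest were Hoxb5 at 0.702 and Hoxb7 at 1.58, in HOXC Hoxc11 at 0.531 and Hoxc5 at 1.14, and in HOXD Hoxd9 at 1.90 and Hoxd11 at 3.50 CPM per kb. Hoxd13 alone held 35% of the summed mean CPM of the 32 genes, 477.7. The 7 genes below the filter were Hoxb1, with 0 counts in all libraries, and Hoxb13, Hoxc12, Hoxc13, Hoxd1, Hoxd3 and Hoxd4, none above 13 counts in any library.

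**Figure D1:**
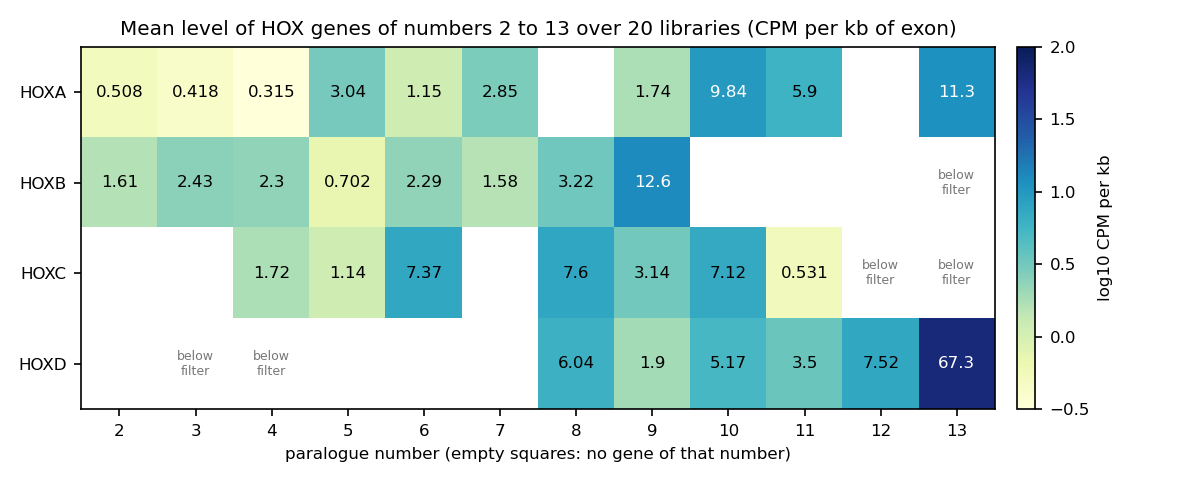
Mean CPM per kb of exon over 20 libraries for each HOX gene, clusters in rows and paralogue numbers 2 to 13 in columns, with colour on a log10 scale; "below filter" marks genes not tested and empty squares have no gene. Hoxd13 stands highest at 67.3, and paralogues 2 to 4 of HOXA lie between 0.315 and 0.508.

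The summed HOXB and HOXC levels were higher in the knock-in in every condition, though not every gene was. Most of HOXA and numbers 10 to 13 of HOXD did not pass the test between genotypes. In the model with genotype and condition, over 10 matched pairs, 16 of the 32 genes were higher in the knock-in and 2 lower, where 7.99% of the 14023 genes tested were higher and 7.81% lower. The 16 were all 8 of HOXB, 6 of 7 in HOXC (all but Hoxc11), Hoxd8 and Hoxd9. The median log2 difference was 0.76 in HOXB, 0.56 in HOXC, 0.14 in HOXA and 0.02 in HOXD, and 0.00 over all genes tested.

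Among the HOXB genes, Hoxb5 ranged from 0.295 to 2.18 CPM in crel-/- (median 1.35) and from 1.78 to 4.51 CPM in the knock-in (median 2.21). The difference was 1.02 on the log2 scale (SE 0.22, adjusted p = 0.00599), higher in 10 of 10 pairs. Hoxb9, the most abundant of the cluster, ranged from 15.3 to 34.9 CPM (median 22.3) in crel-/- and from 29.8 to 63.6 CPM (median 38.1) in the knock-in. Its genotypes overlapped over conditions, yet each pair differed the same way, by 0.82 (SE 0.06, adjusted p = 1.02e-06). Hoxb6 was higher by 0.89 (SE 0.15, adjusted p = 0.00109), Hoxb3 by 0.77 (SE 0.09, adjusted p = 4.94e-05), Hoxb8 by 0.76 (SE 0.07, adjusted p = 6.61e-06) and Hoxb4 by 0.69 (SE 0.11, adjusted p = 0.000708), each in 10 of 10 pairs. Hoxb2 (0.59) and Hoxb7 (0.52) were each higher in 9 of 10 pairs.

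In HOXC, Hoxc6 ranged from 7.29 to 18.4 CPM (median 14.6) in crel-/- and from 18.9 to 24.1 CPM (median 22.0) in the knock-in, a difference of 0.67 (SE 0.08, adjusted p = 8.39e-05). The ranges of its genotypes did not overlap over all conditions, and how often that held among all genes tested was not counted. Hoxc9 was higher by 0.62 (SE 0.09, adjusted p = 0.000252), Hoxc10 by 0.61, Hoxc8 by 0.56, Hoxc4 by 0.52 and Hoxc5 by 0.46. All but Hoxc5, at 8 of 10, were higher in 10 of 10 pairs.

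The 2 genes that were lower in the knock-in both belong to HOXA. Hoxa13 ranged from 18.3 to 36.0 CPM (median 32.5) in crel-/- and from 10.9 to 30.8 CPM (median 26.8) in the knock-in, lower by -0.34 (SE 0.07, adjusted p = 0.00663) in 9 of 10 pairs. Hoxa2, with at most 22 counts in a library, was lower by -0.60 (SE 0.19, adjusted p = 0.0416) in 10 of 10 pairs. In HOXD, Hoxd8 (0.32) and Hoxd9 (0.35) were higher in 10 of 10 pairs, while Hoxd10 (-0.21), Hoxd11 (-0.14), Hoxd12 (0.10) and Hoxd13 (-0.07) did not pass the test.

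**Figure D2:**
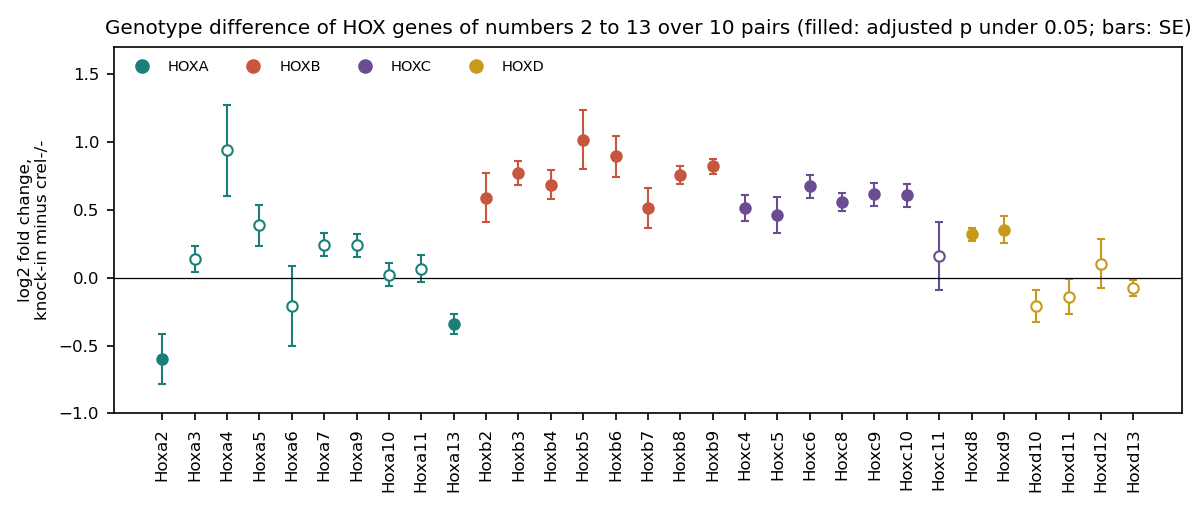
Log2 fold change, knock-in minus crel-/-, of HOX genes of paralogue numbers 2 to 13 in cluster order; bars are SE from the fit over 20 libraries, filled points passed an adjusted p of 0.05 and open ones did not. All 8 HOXB genes and 6 of 7 HOXC genes lie above 0 and are filled, Hoxa2 and Hoxa13 are filled below 0.

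Without the LPS 3 h libraries 13 of the 16 higher genes kept their call and the lower calls came to 1. Hoxa2 was also no longer called by DESeq2 or without any 1 of 9 of the 10 pairs. Other gene groups differed between the genotypes as well: 4 of 8 cartilage markers tested were lower in the knock-in, against 7.81% of all genes (Col2a1 by -1.45, SE 0.18, adjusted p = 0.00029), with summed levels of 944 to 1409 CPM in crel-/- and 746 to 1251 CPM in the knock-in. At 0 h the sum was higher in the knock-in, at 1123 CPM against 975 CPM in crel-/-. The part of such groups in the HOX differences was not tested, and with 1 series of libraries per genotype the allele and the origin of the cultures cannot be told apart.

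In the first hour few HOX genes changed. Averaged over the 3 agents 1 gene was lower after 0.5 h, Hoxd8 by -0.32 (SE 0.09, adjusted p = 0.0429; lower in 6 of 6 libraries), where 2.9% of the genes tested rose and 2.53% fell. At 1 h 0 of 32 passed by edgeR and by DESeq2, 5 having an unadjusted p under 0.05, while 7.12% of all genes were higher and 6.7% lower. Leaving out 1 library moved the count at 0.5 h to between 0 and 2.

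By agent, Hoxa3 (-0.88), Hoxc8 (-0.51) and Hoxd8 (-0.42) were lower after 0.5 h of IL-1b, beside 5.75% of all genes higher and 5.36% lower. After 1 h of IL-1b Hoxa3 (-1.10), Hoxb3 (-0.62) and Hoxb8 (-0.48) were lower, beside 8.38% and 7.12%. Hoxa3, a patterning gene of the pharynx and neck, stood at 3.39 and 4.08 CPM at 0 h, at 2.08 and 1.97 CPM after 0.5 h and at 1.77 and 1.69 CPM after 1 h of IL-1b, crel-/- first and knock-in second. After 0.5 h of LPS Hoxb9 (-0.60), Hoxc8 (-0.52) and Hoxd8 (-0.43) were lower, beside 3.56% of all genes higher and 2.46% lower. At 1 h of LPS Hoxb9 was lower (-0.45) and Hoxd9 higher (0.75), beside 7.58% and 6.08%. After TNF 0 of 32 passed by edgeR at 0.5 h (0.314% of all genes were higher and 0.0784% lower, and 1 of the 32 had an unadjusted p under 0.05) and 0 of 32 at 1 h (2.25% and 1.78%, 3 unadjusted). DESeq2 likewise called 0 for TNF at 1 h. These contrasts share the 0 h libraries, and leaving out 1 of those 2 took the counts under IL-1b and LPS at 0.5 h to between 0 and 1. The IL-1b and LPS libraries stood apart from the 0 h and TNF libraries at 0.5 h in Fn1, a gene outside the clusters, too. The part of that separation in these HOX changes was not tested.

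At 0.5 h 2 HOX genes differed between the agents: with IL-1b and LPS set against TNF, Hoxa9 was higher by 0.81 (SE 0.17, adjusted p = 0.00716) and Hoxb9 lower by -0.54 (SE 0.11, adjusted p = 0.00601), with all 4 libraries on that side for both genes, where 5.24% of all genes were higher and 5.13% lower. Hoxa9 stood at 10.7 and 10.4 CPM at 0 h, and at 5.48 and 8.09 CPM after 0.5 h of TNF. After 0.5 h it stood at 14.2 and 16.4 CPM under LPS and at 9.33 and 8.84 CPM under IL-1b. Only LPS was thus above 0 h, and the IL-1b value of the knock-in lay near that of TNF. In the same contrast 8 of 14 macrophage markers (median -0.50) and 5 of 12 neural and Schwann cell markers (median -1.51) were lower, and their part in the HOX values was not tested. The Hoxa9 call was lost without the crel-/- TNF 0.5 h library, and the lower calls ran from 0 to 4 over the libraries left out.

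By 3 h HOX genes had fallen, most of all in HOXA. In the mean of the 3 agents 14 of 32 genes were lower and 0 higher, where 24.5% of all genes were lower and 25.5% higher. They were 9 of 11 in HOXA, Hoxb9, Hoxc5, Hoxc8, Hoxd8 and Hoxd12. The median change was -1.16 in HOXA, 0.10 in HOXB, -0.43 in HOXC and -0.22 in HOXD, against 0.00 over all genes tested. No higher call came from DESeq2 or an unadjusted p under 0.05 either. Without the LPS 3 h libraries 13 were lower, 10 of them among the 14, and the sign of the HOXB median depended on scaling (-0.20 with library totals only). Of 12 neural and Schwann cell markers 7 fell as well at 3 h, their summed level going from 120 CPM in crel-/- and 75.2 CPM in the knock-in at 0 h to 45.8 and 58.5 CPM after LPS. By agent 6 of 12 fell under IL-1b and 6 under LPS, while under TNF, where HOXA had a median of -1.06, 0 fell and 2 rose (median -0.16). Their part in the HOX values was not tested.

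**Figure D3:**
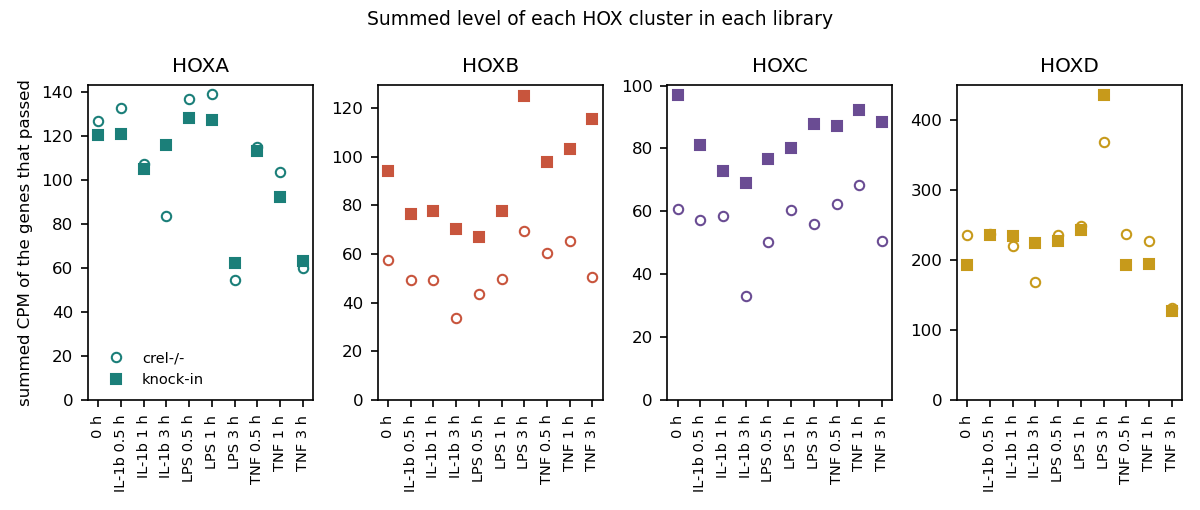
Summed CPM, after TMM scaling, of the genes of each cluster that passed the filter. Each point is 1 library, with conditions on the x axis, open circles for crel-/- and filled squares for the knock-in. HOXA drops at LPS 3 h and TNF 3 h to between 54.4 and 63.2 CPM from 121 to 127 CPM at 0 h, HOXD rises at LPS 3 h and drops at TNF 3 h, and HOXB and HOXC are higher in the knock-in in every condition.

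The mean over agents hid separate patterns, and summed levels show them. HOXA summed to 127 CPM at 0 h in crel-/- and 121 CPM in the knock-in. It stood at 54.4 and 62.3 CPM after 3 h of LPS and at 60.2 and 63.2 CPM after 3 h of TNF. HOXD, most of it Hoxd13, stood at 236 and 193 CPM at 0 h, at 369 and 435 CPM after 3 h of LPS and at 132 and 127 CPM after 3 h of TNF. Thus, in TMM-scaled CPM, the HOXA sums moved the same way under both agents and the HOXD sums in opposite ways. The HOXD rise under LPS lay mostly in Hoxd13 (160 and 128 CPM at 0 h, 322 and 373 CPM after LPS). The median change of the HOXD genes under LPS was -0.09, and -0.69 with library totals only. The sums depend on the scaling factors, which were lowest for LPS at 3 h (0.722 and 0.732).

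Under LPS at 3 h, 13 of 32 genes fell and 6 rose, where 28.3% of all genes fell and 29.2% rose. The falls were 8 of 11 HOXA genes (among them Hoxa2, Hoxa3, Hoxa5, Hoxa7, Hoxa9, Hoxa10 and Hoxa11), Hoxb9, Hoxc4, Hoxc8, Hoxc11 and Hoxd8. The rises were Hoxb2, Hoxb4, Hoxb6, Hoxb8, Hoxc9 and Hoxd13. The cluster medians were -1.47 in HOXA, 0.87 in HOXB, -0.37 in HOXC and -0.09 in HOXD.

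The scaling bears on these counts, since the LPS 3 h libraries have the lowest factors. With library totals only, the median of all genes moved by -0.62, and 21 HOX genes fell and 3 rose, beside 9110 of all genes that fell and 1706 that rose. With upper-quartile scaling 18 fell and 4 rose. The 3 that rose under every scaling were Hoxb2, Hoxb4 and Hoxd13. The median of HOXB was 0.27 and that of HOXA -2.08 with library totals only, so that both kept their sign, and so did that of HOXC (-0.97) and HOXD (-0.69). No called gene changed sign.

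Hoxa3 had 90 counts in the 0 h libraries together and 4 after 3 h of LPS. Its level went from 3.39 CPM in crel-/- and 4.08 CPM in the knock-in to 0.290 and 0.250 CPM, both below the floor of their libraries (0.435 and 0.376 CPM). The fitted change was -3.74 (SE 0.34, adjusted p = 7.88e-07), and the ratio of scaled counts was 13.9 times lower (95% counting interval 5.23 to 52.0). After IL-1b it stood at 2.86 and 3.03 CPM, higher than at 1 h of IL-1b by 0.76 (SE 0.22, adjusted p = 0.0434). That higher call was lost without any 1 of the 4 libraries compared and by DESeq2, without the count filter and with the other scalings. Under LPS Hoxa3 stood at 3.32 CPM in both genotypes at 1 h, before the low values at 3 h.

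Hoxa5, a regulator of lung and cervical skeleton patterning, stood at 6.38 CPM (crel-/-) and 8.83 CPM (knock-in) at 0 h and at 0.870 and 2.38 CPM after 3 h of LPS, a fall of -2.20 (SE 0.42, adjusted p = 0.000503). Hoxa10, which patterns the lumbar region, the upper limb bones and the uterus, stood at 42.0 and 33.8 CPM at 0 h and at 12.3 and 14.9 CPM after LPS, a fall of -1.47 (SE 0.21, adjusted p = 5.06e-05). The groups did not overlap for either gene. Hoxa7 fell by -1.41 (SE 0.21), Hoxa11 by -1.41 (SE 0.24) and Hoxa9 by -1.39 (SE 0.22).

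Low counts limit the anterior genes of the cluster. Hoxa2, which acts in hindbrain patterning, had 34 counts at 0 h and 4 after LPS and was 5.23 times lower (95% counting interval 1.87 to 20.3). Hoxa6 had 23 and 2 counts, a ratio of 7.08 (95% counting interval 1.75 to 62.0), and did not pass the test (adjusted p = 0.0513). Hoxc11 changed by -1.78 (SE 0.70, adjusted p = 0.0427) on at most 18 counts in a library. DESeq2 and limma-voom made no call for Hoxc11.

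Among the genes that rose under LPS, Hoxd13 stood at 160 CPM (crel-/-) and 128 CPM (knock-in) at 0 h and at 322 and 373 CPM after 3 h, higher by 1.28 (SE 0.13, adjusted p = 3.94e-06). In the other libraries its highest level was 174 CPM. Hoxb2 stood at 2.91 and 5.69 CPM at 0 h and at 10.9 and 17.8 CPM after 3 h, higher by 1.75 (SE 0.38, adjusted p = 0.00156). Hoxb4, a regulator of blood stem cell expansion and neck patterning, stood at 4.60 and 7.30 CPM at 0 h and at 10.2 and 16.9 CPM after 3 h, higher by 1.18 (SE 0.22, adjusted p = 0.000456). For Hoxb2, Hoxb4 and Hoxd13 the stimulated libraries lay above both 0 h libraries. Hoxb8 rose by 0.92 (SE 0.14, adjusted p = 8.73e-05), Hoxb6 by 0.91 (SE 0.33, adjusted p = 0.0285) and Hoxc9 by 0.68 (SE 0.18, adjusted p = 0.00615). These 3 did not pass with library totals only, nor without a genotype term in the model.

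**Figure D4:**
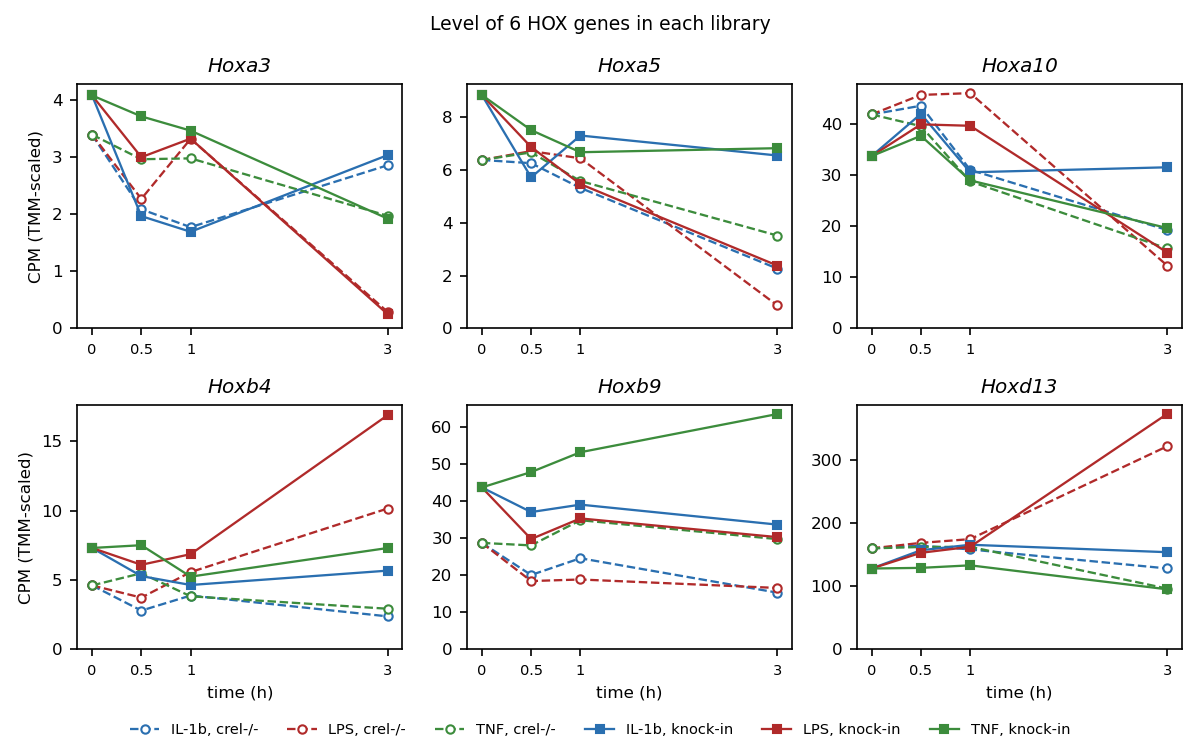
Level of 6 HOX genes in each library against time in h, on linear axes from 0 in TMM-scaled CPM; colours mark the agent, broken lines with open circles crel-/- and solid lines with filled squares the knock-in, and the 0 h library of a genotype starts all 3 of its lines. After 3 h of LPS Hoxa3, Hoxa5 and Hoxa10 are at their lowest and Hoxb4 and Hoxd13 at their highest in both genotypes.

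After 3 h of TNF, genes at the posterior ends of HOXA and HOXD were lower than at 0 h. Of the 32 genes 10 fell and 0 rose, where 16% of all genes fell and 18.7% rose, and DESeq2 made 0 higher calls as well (1 by limma-voom, and 1 had an unadjusted p under 0.05). They were Hoxa3, Hoxa9, Hoxa10, Hoxa11 and Hoxa13, and Hoxd8, Hoxd9, Hoxd10, Hoxd12 and Hoxd13. By paralogue number, 8 of 13 genes of numbers 9 to 13 fell, 1 of 14 of numbers 4 to 8 and 1 of 5 of numbers 1 to 3. None of the 8 HOXB and 7 HOXC genes passed, with medians of -0.03 and -0.26, against -1.06 in HOXA and -0.72 in HOXD. Without the crel-/- 0 h library the count was 6.

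Hoxd12 stood at 28.4 CPM (crel-/-) and 20.8 CPM (knock-in) at 0 h and at 9.26 and 4.32 CPM after 3 h of TNF, a fall of -1.84 (SE 0.42, adjusted p = 0.0071). Hoxa13, the HOXA gene of the distal limb and hindgut, stood at 34.5 and 29.2 CPM at 0 h and at 18.3 and 10.9 CPM, a fall of -1.14 (SE 0.17, adjusted p = 0.000375). Hoxd10 stood at 10.4 and 6.71 CPM and went to 4.46 and 2.98 CPM, a fall of -1.19 (SE 0.29, adjusted p = 0.00706). In all 3 genes both TNF libraries lay below both 0 h libraries. Hoxa9 fell by -1.35 (SE 0.21, adjusted p = 0.000408), Hoxa11 by -1.26 (SE 0.23, adjusted p = 0.00114), Hoxa10 by -1.10 (SE 0.19, adjusted p = 0.00113), Hoxa3 by -0.93 and Hoxd9 by -0.72. Hoxd13 went to 95.9 and 94.8 CPM, a fall of -0.59 (SE 0.13, adjusted p = 0.00514).

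After 3 h of IL-1b 11 of 32 genes were lower and 0 higher, where 13.8% of all genes fell and 16.9% rose. DESeq2 made 0 higher calls too, and 0 genes were higher at an unadjusted p under 0.05. The 11 were Hoxa2, Hoxa7 and Hoxa10, Hoxb3, Hoxb8 and Hoxb9, Hoxc4, Hoxc5, Hoxc8 and Hoxc10, and Hoxd8. The cluster medians were -0.57 in HOXA, -0.56 in HOXB, -0.65 in HOXC and 0.08 in HOXD, the sign of the last depending on scaling (-0.08 with library totals only).

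Hoxc8, a thoracic patterning gene, stood at 21.6 CPM (crel-/-) and 32.1 CPM (knock-in) at 0 h and at 9.85 and 19.6 CPM after 3 h of IL-1b, a fall of -0.88 (SE 0.14, adjusted p = 0.000697). Hoxb9 stood at 28.7 and 43.7 CPM at 0 h and at 15.3 and 33.7 CPM, a fall of -0.62 (SE 0.13, adjusted p = 0.00337). The fall was within each genotype, and the knock-in level after IL-1b stayed above the crel-/- level at 0 h for Hoxb9. Hoxa2 fell by -1.26 (SE 0.39), Hoxc5 by -0.88 (SE 0.29), Hoxa7 by -0.69 (SE 0.18), Hoxb3 by -0.69 (SE 0.19), Hoxc10 by -0.67 (SE 0.19) and Hoxc4 by -0.65 (SE 0.22). The count rested on few libraries: it was 5 without the crel-/- 0 h library, 3 without the crel-/- IL-1b 3 h library, 4 without the knock-in 0 h library, 1 without a genotype term and 0 in a fit of the 4 libraries compared.

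**Figure D5:**
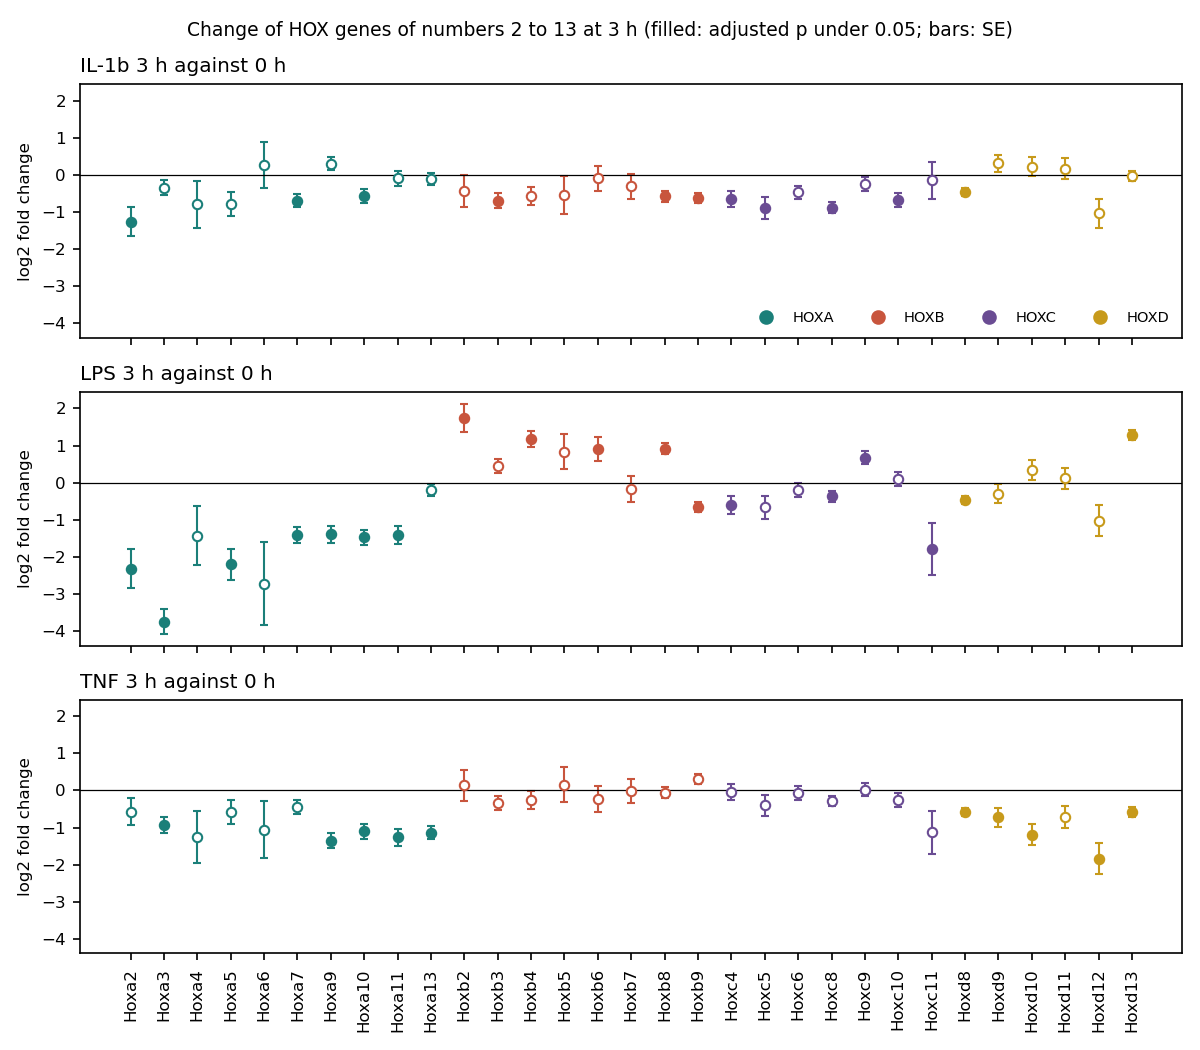
Log2 fold change of HOX genes of paralogue numbers 2 to 13 at 3 h against 0 h, 1 panel per agent, in cluster order; bars are SE from the fit over 20 libraries, filled points passed an adjusted p of 0.05 and open ones did not. After LPS 7 of the 10 HOXA genes drawn are lower and 4 of 8 HOXB genes higher. After TNF 5 HOXA and 5 HOXD genes are lower, and after IL-1b 11 genes spread over all clusters are lower.

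The 3 responses share the 0 h libraries. Hoxa10 and Hoxd8 fell under all 3 agents, 8 genes under 2, 12 under 1 and 10 under none. The Hoxa10 fall under IL-1b lay mostly in crel-/-, from 42.0 to 19.3 CPM. In the knock-in Hoxa10 went from 33.8 to 31.6 CPM. How often falls were shared between agents among all genes tested was not counted. Because the 0 h libraries are shared, falls under more than 1 agent are not independent. Hoxb8 and Hoxd13 rose under LPS and fell under 1 other agent. Called under no agent were Hoxa4, Hoxa6, Hoxb5, Hoxb7, Hoxc6 and Hoxd11. Hoxd8 stood at 18.0 and 23.2 CPM at 0 h and, crel-/- first, at 12.5 and 17.6 CPM after IL-1b, 12.9 and 16.9 CPM after LPS and 11.3 and 16.1 CPM after TNF. Its falls were -0.45, -0.46 and -0.59, with an SE of 0.11 each.

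Paralogues of one number did not move as a unit under LPS. Of number 2, Hoxa2 fell and Hoxb2 rose. Of number 4, Hoxb4 rose and Hoxc4 fell (-0.60), and Hoxa4, with 0 counts in the crel-/- LPS library, did not pass (-1.43, SE 0.79). Of number 8, Hoxb8 rose, Hoxc8 fell (-0.37) and Hoxd8 fell. Of number 9, Hoxa9 and Hoxb9 (-0.66) fell, Hoxc9 rose and Hoxd9 did not pass (-0.30, SE 0.26). Thus numbers 2, 4, 8 and 9 each held at least 1 gene that fell and 1 that rose. For numbers 8 and 9 the genes that rose, Hoxb8 and Hoxc9, did not pass with library totals only or without a genotype term. The difference between paralogues was not tested as such.

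In the remaining numbers, Hoxa3 fell and Hoxb3 did not pass (0.44, SE 0.19). Hoxa5 fell, while Hoxb5 (0.83, SE 0.47) and Hoxc5 (-0.66, SE 0.31) did not pass. Hoxb6 rose, while Hoxc6 (-0.20, SE 0.19) and Hoxa6 did not pass. Hoxa7 fell and Hoxb7 did not pass (-0.17, SE 0.35). Hoxa10 fell, while Hoxc10 (0.09, SE 0.19) and Hoxd10 (0.35, SE 0.27) did not pass. Hoxa11 and Hoxc11 fell and Hoxd11 did not pass (0.12, SE 0.29). Hoxd12, the only number 12 gene tested, did not pass (-1.02, SE 0.41, adjusted p = 0.0531), and of number 13 Hoxd13 rose and Hoxa13 did not pass (-0.20, SE 0.17).

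Set against each other at 3 h, with no use of the 0 h libraries, LPS and TNF differed in 15 HOX genes. Higher under LPS were 10 (24.3% of all genes), namely Hoxd13 by 1.87 (SE 0.14, adjusted p = 2.27e-07), Hoxb2 by 1.61, Hoxd10 by 1.54, Hoxb4 by 1.44, Hoxb6 by 1.14, Hoxb8 by 0.97, Hoxa13 by 0.94, Hoxd11 by 0.84, Hoxb3 by 0.77 and Hoxc9 by 0.66. Lower were 5 (24% of all genes), Hoxa3 by -2.81 (SE 0.39, adjusted p = 4.32e-05), Hoxa2 by -1.75, Hoxa5 by -1.62, Hoxb9 by -0.97 and Hoxa7 by -0.96. So 5 of 8 HOXB genes were higher under LPS than under TNF and Hoxb9 lower. The lower calls came to 3 without the crel-/- LPS 3 h or the knock-in TNF 3 h library, and with library totals only 6 were higher and 10 lower.

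Against IL-1b, LPS gave 10 higher (23.8% of all genes) and 7 lower (23.4%). The higher ones were Hoxb2 by 2.19 (SE 0.40, adjusted p = 0.000608), Hoxb4 by 1.76, Hoxb8 by 1.49, Hoxb5 by 1.38, Hoxd13 by 1.30, Hoxb3 by 1.13, Hoxb6 by 1.00, Hoxc9 by 0.92, Hoxc10 by 0.77 and Hoxc8 by 0.51. All 7 lower ones were HOXA genes, Hoxa3 by -3.40 (SE 0.36, adjusted p = 4.1e-06), Hoxa6 (2 counts after LPS, adjusted p = 0.0363), Hoxa9 by -1.70, Hoxa5 by -1.41, Hoxa11 by -1.32, Hoxa10 by -0.91 and Hoxa7 by -0.72. Without the knock-in LPS 3 h library 6 were higher, without the knock-in IL-1b 3 h library 3 were lower, and with library totals only 6 were higher and 12 lower.

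Against TNF, IL-1b gave 6 higher (7.89% of all genes), all of numbers 9 to 13 in HOXA and HOXD, and 3 lower (7.93%). The higher ones were Hoxa9 by 1.66 (SE 0.20, adjusted p = 0.00017), Hoxd10 by 1.41, Hoxa11 by 1.17, Hoxa13 by 1.04, Hoxd9 by 1.04 and Hoxd13 by 0.57. The lower ones were Hoxb9 by -0.93 (SE 0.13, adjusted p = 0.00037), Hoxc8 by -0.60 and Hoxb8 by -0.52. Hoxb9 stood at 29.7 and 63.6 CPM after 3 h of TNF, 15.3 and 33.7 CPM after IL-1b and 16.5 and 30.3 CPM after LPS, so that within each genotype TNF was the highest of the 3. Only 3 were higher without the knock-in IL-1b 3 h library, 1 was lower without the crel-/- IL-1b 3 h or the knock-in TNF 3 h library, and a fit of the 4 libraries compared gave 0 higher and 1 lower.

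Between 1 h and 3 h, a comparison of 6 with 6 libraries that leaves out 0 h, 17 HOX genes fell (25.1% of all genes) and 3 rose (26.3%). The falls with the lowest values were Hoxa6 by -1.50 (SE 0.50), Hoxa3 by -1.18 (SE 0.17), Hoxd12 (adjusted p = 0.00492), Hoxa5 by -0.89 (SE 0.22), Hoxa10 by -0.88 (SE 0.11), Hoxa9 by -0.85 (SE 0.12), Hoxa11 by -0.84 (SE 0.13) and Hoxa7 by -0.73 (SE 0.11). Hoxa7, Hoxc4, Hoxc6, Hoxd8, Hoxd9 and Hoxd12 were lower in 6 of 6 libraries at 3 h than in the 1 h library of the same agent and genotype. Those that rose, Hoxb4 (0.37), Hoxb8 (0.33) and Hoxc9 (0.33), rested on the LPS 3 h libraries: without them the values were -0.17, -0.09 and 0.06, and 0 genes rose. The higher count was 1 without 1 of the knock-in libraries IL-1b 1 h, IL-1b 3 h, LPS 1 h, TNF 1 h or TNF 3 h.

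By agent, the change from 1 h to 3 h under IL-1b was 1 higher (10.6% of all genes), Hoxa3, and 4 lower (7.64%), Hoxa7 (-0.61), Hoxc6 (-0.60), Hoxc8 (-0.48) and Hoxb9 (-0.42). Leaving out 1 of the 4 libraries compared took the higher count to 0 in each case and the lower count to between 0 and 8. Under LPS 6 rose (25.9%), Hoxb2, Hoxb4, Hoxb3, Hoxd13, Hoxb8 and Hoxc9, by 0.91 to 1.62, and 10 fell (25.3%), from Hoxa3 (-3.58, SE 0.35) to Hoxd9 (-1.05, SE 0.25). With library totals only 21 fell. Under TNF 0 rose (12.2%), with none at an unadjusted p under 0.05, and 10 fell (10.4%), Hoxd12 by -1.43, Hoxd9 by -0.98, Hoxd10 by -0.90, Hoxa9 by -0.86, Hoxa11 by -0.84, Hoxa13 by -0.83, Hoxa3 by -0.72, Hoxa10 by -0.71, Hoxd13 by -0.63 and Hoxd8 by -0.46. The TNF count was 1 without the crel-/- TNF 1 h library and 4 without the crel-/- TNF 3 h or the knock-in TNF 1 h library.

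Whether the genotype difference itself moved with stimulation was tested with interaction terms. In the 9 stimulated pairs it did not differ detectably from that at 0 h in any HOX gene (0 of 32, 0 at an unadjusted p under 0.05, 0% of all genes in either direction), with 1 pair at 0 h. Between LPS and TNF 0 of 32 differed (2 unadjusted), beside 0% of all genes higher and 0.0214% lower. Between 3 h and 0.5 h 2 HOX genes had a difference that was higher at 3 h, beside 1.68% of all genes, and 0 one that was lower, beside 1.76%. They were Hoxa5 by 1.21 (SE 0.27, adjusted p = 0.0307) and Hoxa10 by 0.58 (SE 0.13, adjusted p = 0.0332). Of the 32, 10 had an unadjusted p under 0.05, all with a higher difference at 3 h. The count was 0 without the IL-1b 0.5 h, LPS 0.5 h, TNF 0.5 h or TNF 1 h pair, 1 without the IL-1b 1 h or IL-1b 3 h pair, and 1 by DESeq2.

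At 0.5 h Hoxa5 stood at 6.25, 6.71 and 6.66 CPM in crel-/- and at 5.72, 6.86 and 7.50 CPM in the knock-in, under IL-1b, LPS and TNF in turn. At 3 h it stood at 2.26, 0.870 and 3.51 CPM in crel-/- and at 6.54, 2.38 and 6.82 CPM in the knock-in. The genotypes overlapped at 0.5 h, and at 3 h the knock-in was higher under each agent. Hoxa10 stood at 43.7, 45.8 and 39.7 CPM in crel-/- and at 42.1, 40.0 and 37.8 CPM in the knock-in at 0.5 h. At 3 h it stood at 19.3, 12.3 and 15.7 CPM in crel-/- and at 31.6, 14.9 and 19.7 CPM in the knock-in. At 0.5 h the knock-in was lower under each agent and at 3 h higher.

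Genes that act with or on the HOX clusters changed in part. At 3 h the lists that follow are given for the mean of the 3 agents unless an agent is named. Their counts stand against 25.5% of all genes higher and 24.5% lower at 3 h, and 7.99% higher and 7.81% lower in the knock-in. Of 9 TALE cofactor genes 5 fell at 3 h and 1 rose (median -0.37). Meis1, a HOX partner, fell by -0.86 (SE 0.18, adjusted p = 0.00168), Meis2 by -0.77 (SE 0.18) and Pknox2 rose by 0.83 (SE 0.12, adjusted p = 0.000141). Between genotypes Meis1 (0.43, SE 0.10) and Meis3 (0.18, SE 0.05) were higher in the knock-in. Of 6 noncoding RNAs of the clusters tested, Hoxb5os (1.02, SE 0.16, adjusted p = 0.000761) and Hoxd3os1 (1.02, SE 0.23, adjusted p = 0.00768) were higher in the knock-in, and 0 passed at 3 h by edgeR in the mean of the agents. By agent 1 of the 6 was lower after 3 h of LPS (28.3% of all genes). Against 1 h, 2 were lower at 3 h of LPS (25.3% of all genes) and 2 at 3 h of TNF (10.4%). Hoxb5os lies antisense within HOXB, where all genes tested were higher in the knock-in too.

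Of 26 Polycomb subunit genes 8 fell at 3 h and 4 rose (median -0.03), where 24.5% of all genes fell and 25.5% rose, so that the share that fell lay near that of all genes. Cbx2, a chromodomain subunit of the complex PRC1, fell by -1.56 (SE 0.28, adjusted p = 0.000533) and Cbx8, another, by -1.10 (SE 0.14, adjusted p = 4.55e-05), while Phc2 rose by 1.07 (SE 0.12, adjusted p = 1.69e-05). In crel-/- Cbx2 went from 15.2 CPM at 0 h to 6.35 (IL-1b), 8.34 (LPS) and 7.55 CPM (TNF) already at 0.5 h. After 3 h of LPS Cbx2 stood at 0.725 CPM in crel-/- and 1.75 CPM in the knock-in. After 3 h of IL-1b it stood at 5.61 and 11.1 CPM, the latter above the knock-in 0 h level of 10.2 CPM. Of 14 Trithorax and H3K27 demethylase genes 5 rose and 0 fell by edgeR in the mean of the agents (median 0.10, beside the same shares of all genes), with Kmt2a, the methyltransferase that maintains HOX activity, up by 1.11 (SE 0.09, adjusted p = 2.04e-06), Dot1l by 0.48 and Ash1l by 0.47. By agent the list did show falls. Under IL-1b 6 rose and 1 fell (16.9% and 13.8% of all genes), and under LPS 3 rose and 4 fell (29.2% and 28.3%). Under TNF 5 rose and 1 fell (18.7% and 16%). In crel-/- Kmt2a stood at 75.9 CPM at 0 h, and at 0.5 h at 150 (IL-1b), 163 (LPS) and 75.6 CPM (TNF). At 3 h of the same agents it stood at 204, 239 and 110 CPM. Ash1l went from 127 CPM at 0 h to 163, 180 and 121 CPM at 0.5 h, in the same order. Both were thus already higher at 0.5 h of IL-1b and LPS, and the part of this in their 3 h rise was not tested. Between genotypes Aebp2 (-0.27, SE 0.06) alone passed in the Polycomb and Trithorax lists. Of 13 retinoic acid genes 7 fell at 3 h and 1 rose (median -0.27), again beside 24.5% and 25.5% of all genes, with the receptor gene Rarb down by -1.16 (SE 0.31, adjusted p = 0.0082), Dhrs3 down by -0.91 (SE 0.10) and Cyp26b1, an enzyme that clears retinoic acid, up by 0.82 (SE 0.23). Between genotypes 2 of the 13 were higher and 2 lower, among them Cyp26b1 (-0.58), Aldh1a2 (0.35) and Crabp1 (0.33). Of 3 upstream regulators tested Gdf11 fell at 3 h (-0.31).

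Transcription factors of position outside the clusters split between the genotypes. Of 34 tested, 7 were higher in the knock-in and 11 lower (median -0.03), where 7.99% of all genes were higher and 7.81% lower. Pax3, of the somites and neural crest, was lower by -1.48 (SE 0.29, adjusted p = 0.00343), Barx1 by -1.35 (SE 0.12, adjusted p = 7.66e-06) and Msx2 by -1.28 (SE 0.18, adjusted p = 0.00027). At 3 h 9 rose, a share near the 25.5% of all genes, and 15 fell, where 24.5% of all genes fell (median -0.41), with Dlx5 down by -1.50 (SE 0.39), Pax3 down by -1.45 (SE 0.48) and Msx2 up by 1.45 (SE 0.33). Of the 12 fibroblast identity genes 4 were higher in the knock-in and 1 lower (Thy1 0.68, Lum -0.33, Fn1 0.24), beside 7.99% and 7.81% of all genes. At 3 h 4 rose and 0 fell by edgeR (Fn1 0.91, S100a4 0.59, Thy1 0.32), beside 25.5% and 24.5%. In crel-/- Fn1 stood at 4126 CPM at 0 h, at 8252 CPM after 0.5 h of IL-1b, at 8056 CPM after 0.5 h of LPS and at 4142 CPM after 0.5 h of TNF, so that it was already higher at 0.5 h of IL-1b and LPS. The 12 genes summed at 0 h to 57822 and 69700 CPM and after LPS 3 h to 88129 and 86367 CPM.

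Exons of 14 of the 32 genes share bases with another gene of the table, 7 on the same strand and 8 on the other. The overlap was 52.9% of Hoxb3 with Hoxb3os, 35% of Hoxa11 with Hoxa11os and 27.3% of Hoxb2 with Hoxb3os, each on the opposite strand, and 8.7% of Hoxc10 with Hoxc5 on the same strand. The library kit keeps strand, but the counting setting is not given in the sources used here, so reads of these overlaps may be split or shared. Hoxa11os held 2526 counts over all libraries and Hoxb3os 73.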

How the data were processed

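The authors deposited a table of raw read counts per Ensembl gene; per the submitters' processing notes, cutadapt 1.12, STAR, featureCounts 1.5.1, DESeq2 and mm10 were used. For the annotation release, strand setting and multiply mapped reads, the choice is not given in the sources used here. Symbols came from the reference annotation for 98.8% of 45706 genes. The 14023 genes that reached 1 CPM in 2 or more libraries, holding 99.9% of counts, were fitted with edgeR 4.0.16 in R 4.3.3 (TMM scaling, quasi-likelihood F test, genotype plus condition, 9 residual degrees of freedom; 8 or 6 with interactions), with Benjamini-Hochberg adjustment over all of them and a threshold of 0.05. SE was derived from the log2 change and its F statistic (change over root F). The common biological coefficient of variation was 10.6%. Intervals of count ratios are exact binomial intervals at 95% and, like the floor, cover counting error only. The steps were tested on simulated data. Alternatives were other scalings, no filter, DESeq2 1.42.0, limma-voom (limma 3.58.1), other designs and leaving out libraries.

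The HOX genes and all lists were chosen with earlier results of these data known. Genes named were the HOX genes that passed the filter; per comparison up to 8 called genes by size of change and every gene called against the majority; the 2 highest and 2 lowest per cluster by CPM per kb; all paralogues of genes named for the 3 h response; and up to 3 called genes per related list. A HOX gene and a gene of a related list, both kept in all counts, medians and sums, are not reported here by name. Other genes named were chosen after their values were seen.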

Additional observations from a re-analysis of the deposited data

Results flagged for a closer look

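Hoxa5 and Hoxa10 drew attention because the difference between the genotypes itself differed between 3 h and 0.5 h by an interaction test. The change in the log2 difference, knock-in minus crel-/-, was 1.21 for Hoxa5 (SE 0.27, adjusted p = 0.0307 by edgeR) and 0.576 for Hoxa10 (SE 0.13, adjusted p = 0.0332 by edgeR). Neither call held without the IL-1b 0.5 h, LPS 0.5 h, TNF 0.5 h or TNF 1 h pair.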

How the results depend on the processing

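The labels carry no replicate numbers, so genotypes were matched by condition alone, within the model. Of the values of single HOX genes that were called, none changed sign with library totals only, upper-quartile scaling, no count filter, limma-voom, DESeq2, only the conditions compared, no genotype term or 1 library or pair left out. Without the LPS 3 h libraries 2 did, for 3 h against 1 h: Hoxb8 (-0.092) and Hoxb4 (-0.17). The cause was not tested. Counts of HOX genes that moved by over 1.5 times follow, by setting. Depth limits Hoxa2, Hoxa4, Hoxa6 and Hoxc11, none above 22 counts in a library.

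With no count filter the genotype difference had 1 lower, 0.5 h 0 lower, IL-1b 1 h 1 lower, LPS 1 h 0 higher and IL-1b 3 h against 1 h 0 higher. DESeq2 gave the same 5 counts, and 1 higher for the genotype difference at 3 h against 0.5 h. Without the LPS 3 h libraries the genotype difference had 1 lower, 0.5 h, IL-1b 0.5 h and LPS 0.5 h 1 higher each, LPS 1 h 2 lower, 3 h against 1 h 0 higher, and IL-1b and LPS against TNF 2 lower.

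With only the conditions compared, 0.5 h had 1 higher and 3 lower, 1 h 1 lower, IL-1b 0.5 h 1 lower, IL-1b 1 h and IL-1b 3 h 0 lower, LPS 0.5 h 1 higher, LPS 1 h 3 higher and 2 lower, and TNF 1 h 1 higher and 2 lower. LPS against IL-1b had 6 higher, IL-1b against TNF 0 higher and 1 lower, IL-1b 3 h against 1 h 0 higher and 0 lower, and IL-1b and LPS against TNF 3 higher and 6 lower. With no genotype term 0.5 h had 0 lower, 3 h 9 lower, IL-1b 0.5 h, 1 h and 3 h 1 lower each, LPS 0.5 h 0 lower, LPS 1 h 0 higher and 0 lower, and LPS 3 h 3 higher.

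With library totals only, 0.5 h had 4 lower, 1 h 6, IL-1b 1 h 5, LPS 1 h 3 (and 0 higher), LPS 3 h 21 (and 3 higher), LPS against TNF 10 (and 6 higher), LPS against IL-1b 12 (and 6 higher), LPS 3 h against 1 h 21, and IL-1b and LPS against TNF 4, while 3 h against 1 h and IL-1b 3 h against 1 h had 0 higher. Upper-quartile scaling gave 2 lower at 0.5 h, 3 at 1 h, 5 for IL-1b 1 h and 2 for LPS 1 h, and 0 higher for LPS 1 h, 3 h against 1 h and IL-1b 3 h against 1 h. Limma-voom gave 2 lower at 0.5 h, 1 at 1 h, 2 for IL-1b 3 h against 1 h and 3 for IL-1b and LPS against TNF, and 1 higher for TNF 3 h.

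With 1 library or pair left out, the genotype difference ranged from 12 to 17 higher and 1 to 2 lower, 0.5 h from 0 to 1 and 0 to 2, 1 h from 0 to 1 lower, 3 h from 0 to 1 and 11 to 18, IL-1b 0.5 h from 0 to 1 and 0 to 4, IL-1b 1 h from 1 to 4 lower, IL-1b 3 h from 0 to 1 and 3 to 14, LPS 0.5 h from 0 to 1 and 0 to 4, LPS 1 h from 0 to 3 and 0 to 2, LPS 3 h from 5 to 7 and 9 to 15, and TNF 3 h from 0 to 1 and 6 to 12. LPS against TNF ranged from 7 to 10 and 3 to 6, LPS against IL-1b from 6 to 12 and 3 to 8, IL-1b against TNF from 3 to 8 and 1 to 4, 3 h against 1 h from 1 to 4 and 12 to 18, IL-1b 3 h against 1 h from 0 to 1 and 0 to 8, LPS 3 h against 1 h from 5 to 6 and 7 to 11, TNF 3 h against 1 h from 1 to 11 lower, IL-1b and LPS against TNF at 0.5 h from 0 to 1 and 0 to 4, and the genotype difference at 3 h against 0.5 h from 0 to 3 higher. A lone library left in a condition was taken to vary like the others.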
